A study of Homo sapiens with 3 samples.

Results

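The arms of hsa-miR-221 and hsa-miR-222 were followed across 3 cancer cell lines. The members were 4 mature microRNAs (miRNAs), namely miR-221-3p, miR-221-5p, miR-222-3p and miR-222-5p, taken by name from 2588 mature miRNAs in the deposited tables. Each of them is listed at a single locus, on chromosome X. Small RNA-seq covered the parental lines C643, a line derived from a thyroid cancer, ES-2, derived from an ovarian cancer, and Huh-7, derived from a liver cancer. The study was directed at miR-21-5p, a miRNA that represses tumor suppressor mRNAs, and these libraries show the miRNAs of the lines before any manipulation. All lines were cultured at 37 °C under 5% CO2 in serum-containing DMEM (10% FBS) and harvested 48 h after seeding, and 50 ng of total RNA went into a NEXTflex small RNA library for Illumina sequencing. None of the 3 groups carried a treatment or an engineered change, and each was represented by 1 library, so no difference has a replicate check.

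Each side of a miRNA hairpin can yield a mature product, called 5p or 3p after the end of the precursor nearest to it, and one arm is usually retained as the guide that recognizes target mRNAs through its seed, the stretch of bases near its 5′ end. miR-221 and miR-222 are neighbours cut from a common primary transcript, share their 3p seed, and are frequently abundant in carcinoma cells. Their best described target is CDKN1B, which encodes the cyclin-dependent kinase inhibitor p27 (Kip1) that holds cells in G1, and others include KIT, a receptor tyrosine kinase, TIMP3, an inhibitor of metalloproteinases, and BBC3, the proapoptotic protein PUMA. No mRNA was measured in these libraries.

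RefSeq holds a mature sequence for 3 of the 4 members (assembly GRCh38.p14, chromosome X, minus strand). They are shown because the shared seed makes the 3p arms one targeting family. Capitals mark bases 2 to 8.
hsa-miR-221-3p: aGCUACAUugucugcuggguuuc
hsa-miR-222-3p: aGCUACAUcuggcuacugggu
hsa-miR-222-5p: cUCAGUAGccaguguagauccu
hsa-miR-221-5p is given by name only. The 3p arms lie at 45746180 to 45746202 for miR-221-3p and 45747036 to 45747056 for miR-222-3p, and miR-222-5p lies at 45747073 to 45747094. Among 2370 mature names in RefSeq, GCUACAU occupied bases 2 to 8 in these 3p arms and in no other miRNA, and UCAGUAG occurred there only in miR-222-5p. The 3p arms were identical over their first 8 bases. Compared without gaps they had the same base at 11 of 21 positions. A later run of 6 bases, CUGGGU, began at base 15 of miR-221-3p and at base 16 of miR-222-3p.

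In GENCODE version 29 (GRCh38), MIR221 spans 45746157 to 45746266 and MIR222 spans 45747015 to 45747124 of chromosome X. Both hairpins are 110 bases long, lie on the minus strand and are separated by 748 bases. The pair sits in an intron, from 45746101 to 45769785, of transcript MIR222HG-201 of the long non-coding RNA gene MIR222HG (45745211 to 45770274).

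Sites for the shared seed are illustrated by CDKN1B. Its 3′ UTR of 1344 bases on chromosome 12 holds 2 matches to bases 2 to 8, searched on the sense strand as ATGTAGC, given in capitals with their surroundings (GRCh38, plus strand).
CDKN1B, chr12:12721216-12721240: taaaagcgttggATGTAGCattatg
CDKN1B, chr12:12721289-12721313: tttttaccttttATGTAGCacataa
Both matches are followed by an A, the base that would face base 1 of the 3p arms. Of 8268 3′ UTRs at least as long as that of CDKN1B, 6.46% hold a match within this length, and 1528 of 19093 3′ UTRs (8.0%) hold one anywhere. The 3′ UTR of KIT holds 2 matches, and those of TIMP3, BBC3 and CDKN1C, which encodes the inhibitor p57 (Kip2), hold 1 each. Among 3′ UTRs at least as long, 10.5% hold a match within the length of KIT and 17.8% within that of TIMP3. For BBC3 and CDKN1C the values are 4.66% and 3.26%. The match in TIMP3 is not followed by an A, and the others are. These matches describe the annotation and are no measurement of repression.

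Reads assigned to miRNAs totalled 8183100 for C643, 1663181 for ES-2 and 2173587 for Huh-7. The values of C643 came in a separate table that may carry its own scaling, so levels are given as shares, a miRNA's percentage of all miRNA reads of its own library, and values set across the 2 tables are described only. Intervals are 95% intervals of counting error, and reads copied by PCR are not independent molecules. hsa-miR-122-5p, the miRNA typical of hepatocytes, had 288469 reads in Huh-7, 468 in C643 and 6 in ES-2.

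The 4 arms together took a large part of the miRNA pool in ES-2 and C643 and a small part in Huh-7. They held 8.15% of reads in ES-2 (Wilson interval 8.11 to 8.19), 4.78% in C643 (4.76 to 4.79) and 0.580% in Huh-7 (0.570 to 0.590). The share was thus 14.1 times that of Huh-7 in ES-2 (13.81 to 14.32) and 8.24 times that of Huh-7 in C643 (8.094 to 8.385). ES-2 exceeded C643 by 1.71-fold (1.696 to 1.717). The intervals of the 3 libraries did not overlap, but differences beyond counting error were common at this depth. A test of the reads, given below, called 360 of 390 miRNAs between ES-2 and Huh-7.

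miR-222-3p was the most abundant member in every library. It had 92194 reads in ES-2, 255408 in C643 and 8973 in Huh-7. This gave shares of 5.54% in ES-2 (5.51 to 5.58), 3.12% in C643 (3.11 to 3.13) and 0.413% in Huh-7 (0.404 to 0.421). It ranked 4 among all miRNAs in ES-2, 7 in C643 and 34 in Huh-7. In ES-2 it stood between miR-100-5p (11.15%) and miR-92a-3p (5.251%). In C643 it stood between let-7b-5p with 3.39% and miR-92a-3p with 2.53%, and in Huh-7 between miR-10b-5p with 0.437% and let-7e-5p with 0.406%. The interval of miR-222-3p in Huh-7 held the share of let-7e-5p, so the order of these neighbours was within counting error there.

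miR-221-3p, the second arm with the shared seed, followed the same order of libraries. It had 40466 reads and 2.43% in ES-2 (2.41 to 2.46), where it ranked 9. It had 123052 reads and 1.504% in C643 (1.495 to 1.512), at rank 13. In Huh-7 it had 3420 reads and 0.157% (0.152 to 0.163), at rank 59. Its neighbours were miR-29a-3p and let-7f-5p in ES-2, miR-30d-5p and let-7e-5p in C643, and miR-16-2-3p and miR-532-5p in Huh-7. The share of miR-16-2-3p, 0.162%, lay inside the interval of miR-221-3p.

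The 5p arms were rarer throughout, and they did not share one order of libraries. miR-221-5p had 2749 reads and 0.165% in ES-2 (0.159 to 0.172), 10912 reads and 0.133% in C643 (0.131 to 0.136), and 206 reads and 0.00948% in Huh-7 (0.00827 to 0.0109). It ranked 45, 63 and 185 in these libraries, next to let-7c-5p and miR-128-3p in ES-2, miR-15b-5p and miR-27b-5p in C643, and miR-505-3p and miR-217 in Huh-7. miR-222-5p had 1567 reads and 0.0191% in C643 (0.0182 to 0.0201), 186 reads and 0.0112% in ES-2 (0.00969 to 0.0129), and 6 reads and 0.000276% in Huh-7 (0.000127 to 0.000602). It was the member for which C643 stood above ES-2, and the one whose Huh-7 value rested on few reads. It ranked 123, 136 and 577 in the libraries just named, beside miR-652-3p and miR-1260a, miR-452-5p and miR-339-3p, and miR-1237-3p and miR-1229-3p in that order.

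**Figure D1:**
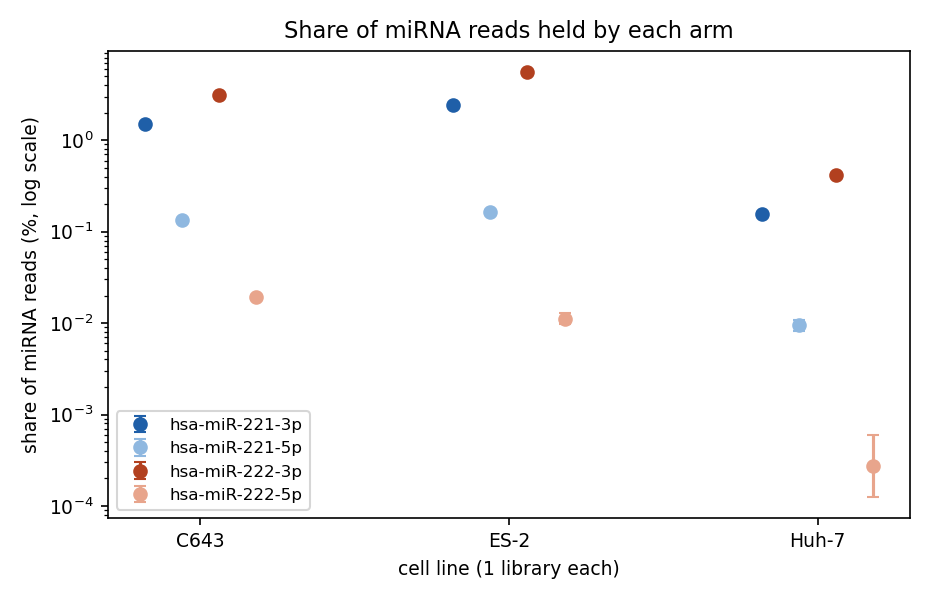
Share of each arm in all miRNA reads (percent, log scale) by cell line, with 1 library per line and bars for the Wilson 95% interval. The 3p arms of miR-222 and miR-221 lie above both 5p arms in each line, every arm is lowest in Huh-7, and the widest interval is that of miR-222-5p in Huh-7, with 6 reads.

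Within the 4 arms the composition was alike in its order in all lines. miR-222-3p made up 67.99% of their reads in ES-2, 65.3% in C643 and 71.2% in Huh-7. miR-221-3p made up 29.8%, 31.5% and 27.1% in the same order. The 5p arms contributed the remainder, from 3.19% in C643 to 1.68% in Huh-7.

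Member by member, the comparison within one table was that of ES-2 with Huh-7. By share, miR-222-3p was 13.4-fold higher in ES-2 (13.14 to 13.72), miR-221-3p 15.5-fold (14.93 to 16.01), miR-221-5p 17.4-fold (15.14 to 20.09) and miR-222-5p 40.5-fold (17.97 to 91.34). All 4 members passed 4-fold toward ES-2, as did 65 of 390 miRNAs at 10 or more deposited units in either library (16.7%), while 153 were at least 4-fold lower. miR-222-5p, at 1.69 units in Huh-7 and 129 in ES-2, entered this count only through the library in which it was high, and the other 3 members stood above 10 units in both. The median log2 fold over the 390 was -1.46, and the members were placed 46, 45, 44 and 30 from the highest in the order just given. On the deposited scale the split of these 390 was 76 higher and 108 lower, so that 41.3% in place of 29.8% of the 4-fold differences were toward ES-2. Over 491 miRNAs with a read in both libraries the median log2 ratio was -1.07 by share and -0.15 on the deposited scale. The log2 fold of each member nonetheless lay between 3.57 and 7.13 under all 6 scalings tried. A Benjamini-Hochberg adjusted two-sided exact binomial test of the reads was also run, and its p concerns the libraries rather than the lines. It called 360 of the 390 miRNAs. Of these, 100 were higher in ES-2 (25.6% of the 390), all 4 members included, and 260 were higher in Huh-7. A call by this test therefore does not set a member apart.

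C643 stood in a similar relation to Huh-7, across the 2 tables. The share was 7.56-fold higher in C643 for miR-222-3p (7.403 to 7.721), 9.56-fold for miR-221-3p (9.238 to 9.887), 14.1-fold for miR-221-5p (12.26 to 16.15) and 69.4-fold for miR-222-5p (31.12 to 154.6). All 4 passed 4-fold, against 81 of 399 miRNAs (20.3%) higher in C643 and 132 lower, and miR-222-5p again entered only through the higher library. On the deposited scale 90 were higher and 100 lower. Over the 6 scalings the log2 fold ran from 2.82 to 4.57 for miR-222-3p and from 4.05 to 7.76 for miR-222-5p. Between ES-2 and C643 the members differed less. miR-222-3p was 1.78-fold higher in ES-2 (1.763 to 1.789), miR-221-3p 1.62-fold (1.6 to 1.636) and miR-221-5p 1.24-fold (1.189 to 1.292), whereas miR-222-5p was 1.71-fold higher in C643 (1.471 to 1.993). None of the 4 reached 4-fold in either direction, against 36 of 351 miRNAs (10.3%) higher in ES-2 and 71 higher in C643.

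**Figure D2:**
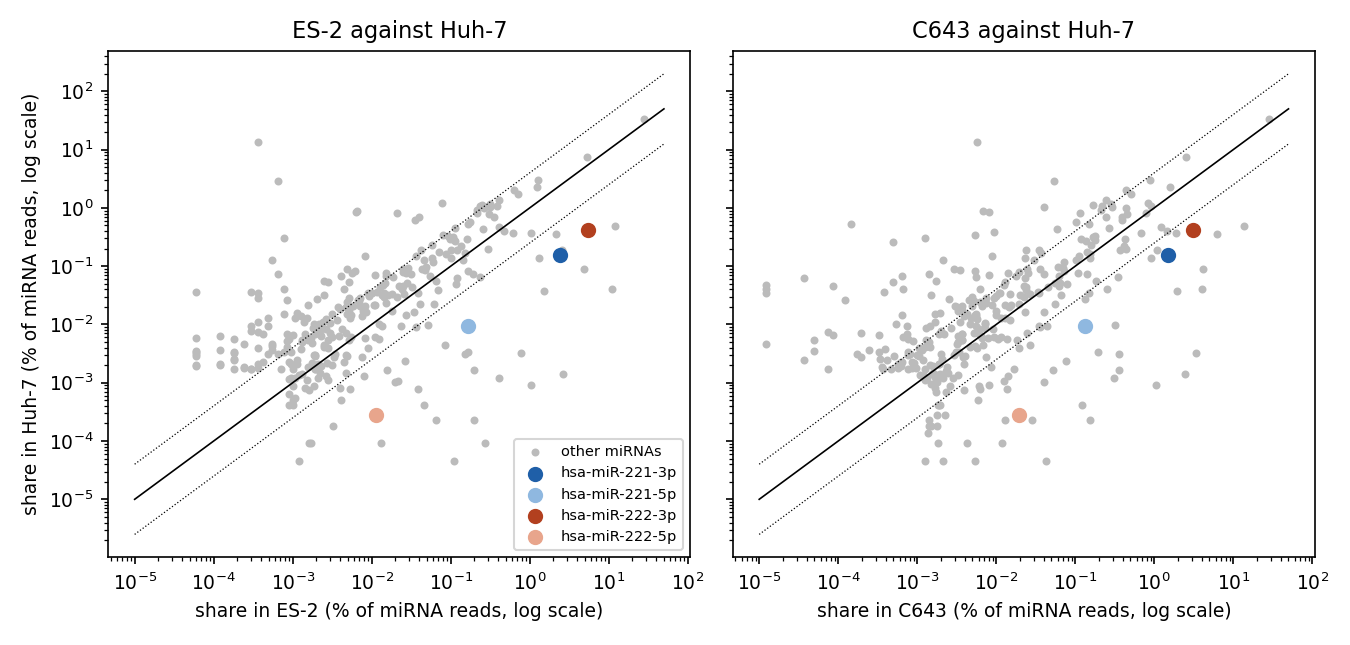
Share of each miRNA in Huh-7 (y axis) against its share in ES-2 or C643 (x axis), in percent of miRNA reads on log scales, for miRNAs at 10 or more deposited units in either library and at least 1 read in both. The solid line marks equal shares and the dotted lines a 4-fold difference, and in both panels all 4 members fall below the lower dotted line, on the side away from Huh-7.

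Shares depend on what else fills a library, so the members were also set against common reference miRNAs and miR-21-5p of the same library. The reference list (miR-16-5p, miR-103a-3p, miR-191-5p, miR-93-5p, miR-25-3p and miR-425-5p) was itself higher in Huh-7. It held 6.64% of reads there, 1.95% in ES-2 and 1.97% in C643. Of its 6 members 1 was at least 4-fold lower in ES-2 than in Huh-7, beside 153 of all 390 miRNAs. In C643, 3 of the 6 were at least 4-fold lower than in Huh-7, beside 132 of all 399. miR-222-3p stood at 19.96 times the geometric mean share of the 6 reference miRNAs in ES-2, 10.2 times in C643 and 0.429 times in Huh-7. For miR-221-3p these multiples were 8.76, 4.89 and 0.163. Relative to miR-21-5p, the first-ranked miRNA in each library, the 4 arms together amounted to 28.9% in ES-2, 16.7% in C643 and 1.74% in Huh-7. Each of these scales placed both 3p arms in the order ES-2, C643 and Huh-7.

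The ratio between the neighbours was examined next, because products of one primary transcript can be compared within a library without any scaling. miR-222-3p exceeded miR-221-3p in every line. There was 0.381 read of miR-221-3p per read of miR-222-3p in Huh-7 (exact interval 0.3663 to 0.3965), 0.439 in ES-2 (0.4338 to 0.4441) and 0.482 in C643 (0.4785 to 0.4851). The ratio was 1.15 times as high in ES-2 as in Huh-7 (1.105 to 1.2) and 1.26 times as high in C643 as in Huh-7 (1.215 to 1.316), so the libraries differed beyond counting error, which without replicates says nothing of the spread within a line. How evenly the kit captured different sequences was not tested, so a ratio between arms is one of reads and not of molecules.

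Pairs of neighbouring miRNA genes, miR-221 with miR-222 included, served as the background. Neighbours were consecutive hairpins of the RefSeq list used. How complete that list is was not tested, so a pair may skip a hairpin and other pairs may be missing. Some pairs shared a miRNA, as miR-99b-5p with let-7e-5p and let-7e-5p with miR-125a-5p did. Only miRNAs of a single locus were used, so that miR-15b-5p, for example, was set against miR-16-2-3p. Among 15 pairs on one strand within 10 kb that had 100 or more reads each in ES-2 and Huh-7, the ratio differed at least 2-fold in 3 (20.0%), with a median difference of 1.34-fold, and miR-221 with miR-222 was the third from the smallest. For C643 and Huh-7 it was 9 of 17 pairs (52.9%), with a median of 2.09-fold, and for ES-2 and C643 5 of 16 (31.2%). miR-221 with miR-222 did not reach 2-fold in any of these comparisons.

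Among the 5p arms the order was turned round. miR-221-5p had 34.3 reads per read of miR-222-5p in Huh-7 (15.51 to 94.64), 14.8 in ES-2 (12.74 to 17.24) and 6.96 in C643 (6.604 to 7.347). Thus miR-222 gave the more abundant 3p product and miR-221 the more abundant 5p product in all 3 libraries. The ratio in ES-2 was 2.12 times that in C643 (1.813 to 2.485).

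**Figure D3:**
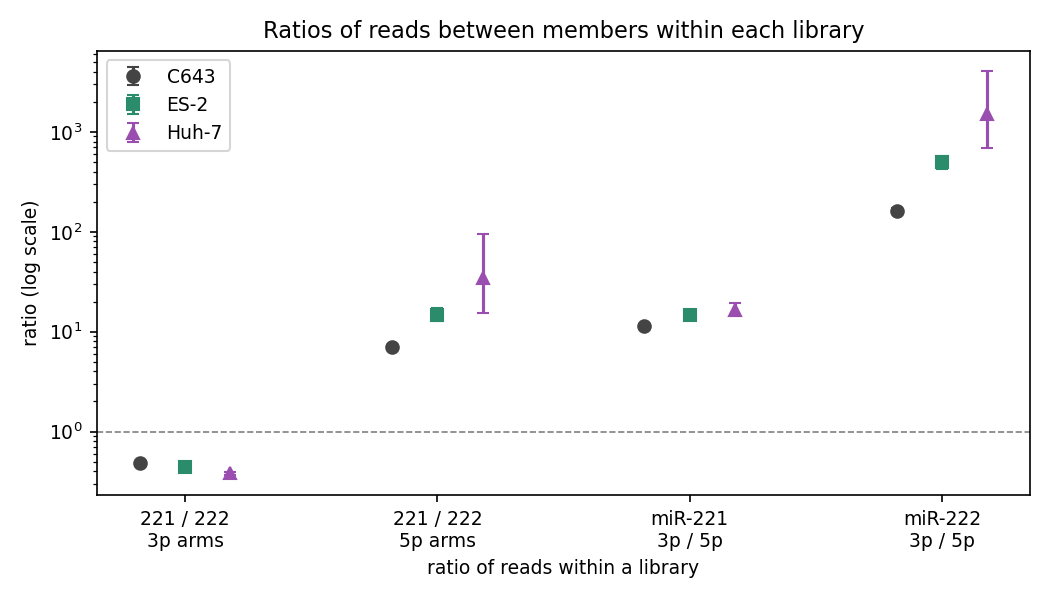
Ratios of reads between members within each library (log scale), with exact 95% intervals and a dashed line at equal reads. The 3p arms of miR-221 and miR-222 keep a ratio of 0.381 to 0.482, while the 3p to 5p ratio of miR-222 runs from 163 in C643 to 1496 in Huh-7.

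Both hairpins yielded mainly the 3p arm. For miR-221 there were 16.6 reads of the 3p arm per read of the 5p arm in Huh-7 (14.42 to 19.2), 14.7 in ES-2 (14.16 to 15.31) and 11.3 in C643 (11.06 to 11.5). The ratio in ES-2 was 0.887 of that in Huh-7 (0.7664 to 1.026), an interval that includes equal ratios. For miR-222 the 3p arm was in far greater excess, at 1496 in Huh-7 (686.8 to 4076), 496 in ES-2 (429.3 to 575.5) and 163 in C643 (155.1 to 171.4). The excess was 3.02 times as large in Huh-7 as in ES-2 (1.338 to 6.804) and 9.18 times as large as in C643 (4.115 to 20.46). It was 3.04 times as large in ES-2 as in C643 (2.612 to 3.541).

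The 3p arm was the higher arm in 48.2% of 112 hairpins with 100 or more reads in Huh-7, in 43.2% of 81 in ES-2 and in 47.6% of 124 in C643. The median excess of the major arm was 19.3-fold in Huh-7, 20.4-fold in ES-2 and 10.9-fold in C643. miR-222 was the third in Huh-7, the sixth in ES-2 and number 16 in C643 by this excess, and miR-221 stood near the middle in each, at place 59, 46 and 61. Hairpins with 3 or fewer reads on the minor arm were left out of these counts, so that hairpins of still greater excess may be among those not ranked.

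Arm ratios shifted between libraries in many hairpins. Hairpins with 3 or fewer reads on an arm in either library were left out, so larger shifts may be among those not ranked. Between ES-2 and Huh-7 the ratio of major to minor arm differed at least 2-fold in 18 of 63 hairpins (28.6%), among them miR-222 with a log2 difference of -1.59, the sixth by size, but not miR-221 with -0.17. The value of miR-222 rested on 6 reads of miR-222-5p in Huh-7. Its counting interval, 1.338 to 6.804 for Huh-7 over ES-2, reached below 2-fold, so its place by size is uncertain. Between C643 and Huh-7 it did so in 48 of 85 (56.5%), and the difference was toward a lower ratio in C643 in 59, with a median of -0.59. There miR-222 stood at -3.20, the third by size and on the same 6 reads, and miR-221 at -0.56. Between ES-2 and C643 it did so in 31 of 75 (41.3%), with miR-222 at 1.61 and miR-221 at 0.38 against a median of 0.39. The shift of miR-221 thus lay near the median of the hairpins ranked in each comparison, and a lower ratio in C643 was shared by most of those hairpins.

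**Figure D4:**
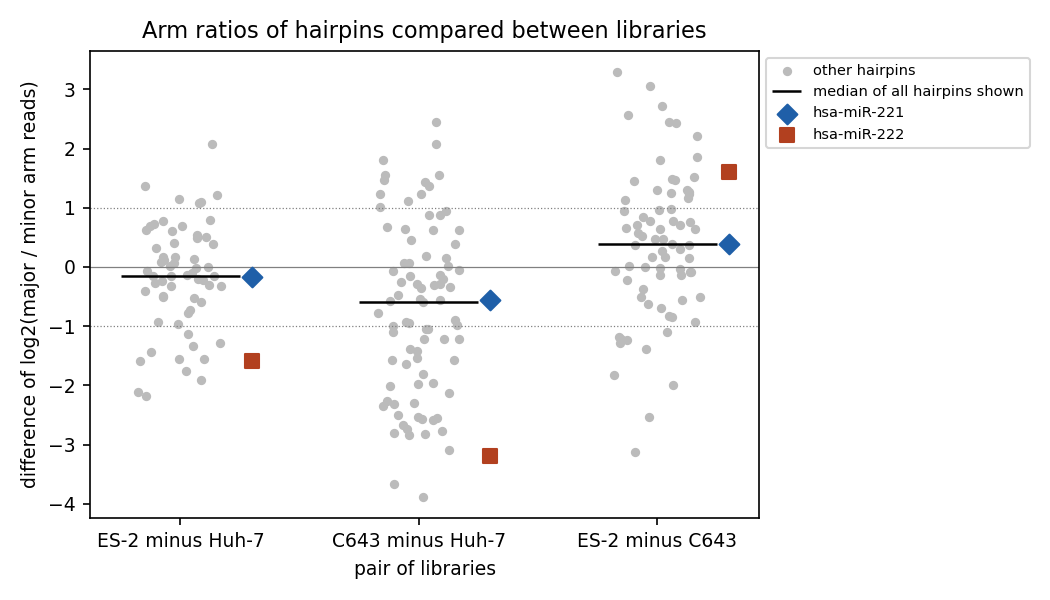
Difference between libraries in the log2 ratio of major to minor arm reads, with 1 point per hairpin (63, 85 and 75 hairpins), the median as a black line and dotted lines at a 2-fold difference. miR-221 (diamonds) lies close to the median in each comparison, and miR-222 (squares) lies beyond 2-fold in all 3. Against Huh-7 the squares rest on 6 reads of miR-222-5p. The counting interval between ES-2 and Huh-7, 1.338 to 6.804, reaches below 2-fold.

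The miRNAs whose shares followed the 3p arms most closely over the 3 libraries were found by the Euclidean distance between log2 shares centred on each miRNA's mean, among 182 miRNAs with a read in each library and 100 or more units in one. miR-222-3p was nearest to miR-221-3p and the reverse, at a distance of 0.24. This held in both directions only with the filter at 100 units. With a filter at 10 units, miR-29a-5p and miR-378a-5p stood nearer to miR-221-3p than miR-222-3p did, while miR-221-3p stayed nearest to miR-222-3p. Next to miR-221-3p came miR-9-5p (0.30), miR-221-5p (0.40), miR-125b-5p (0.51) and miR-29a-3p (0.55). Next to miR-222-3p came miR-29a-3p (0.34), miR-125b-5p (0.35), miR-9-5p (0.52) and miR-29b-1-5p (0.62). miR-29a-3p held 2.56% in ES-2, 1.09% in C643 and 0.193% in Huh-7. miR-9-5p held only 0.00106% in Huh-7, so its places rest on few reads there, and the counting error of the distances was not tested. miR-222-5p was number 24 in distance from miR-221-3p and number 31 from its own sister arm. With only 3 libraries such distances describe the shares and carry no test.

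The members lie on chromosome X, and 162 other miRNAs are listed on that chromosome alone. As a group these, which leave out miRNAs with a further locus on another chromosome such as let-7f-5p, held 0.891% of reads in ES-2, 1.17% in C643 and 1.39% in Huh-7. Of 37 compared between ES-2 and Huh-7, 6 passed 4-fold toward ES-2 and 18 toward Huh-7, with a median log2 fold of -1.82, beside 65 and 153 of all 390 miRNAs with a median of -1.46. The 4 members supplied 90.2% of the reads of miRNAs listed only on chromosome X in ES-2, 80.3% in C643 and 29.5% in Huh-7. Of the 3 others of highest mean share, miR-98-5p, a let-7 family miRNA, exceeded its Huh-7 share 47.4-fold in ES-2 and 111-fold in C643. miR-424-3p held 0.117% in ES-2, 0.0793% in C643 and 0.0486% in Huh-7, and miR-224-5p held 0.101%, 0.366% and 0.190% in that order.

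Other miRNAs were described as lists, chosen by known targets or by tumor type. The 8 miRNAs linked to cyclin-dependent kinase inhibitors (miR-17-5p, miR-20a-5p, miR-93-5p, miR-106a-5p, miR-106b-5p, miR-25-3p, miR-24-3p and miR-181a-5p) held 1.49% of reads in ES-2, 2.19% in C643 and 3.56% in Huh-7. None of the 8 was 4-fold apart between ES-2 and Huh-7, whereas 65 of all 390 miRNAs passed that limit toward ES-2 and 153 toward Huh-7. The median log2 fold of the 8 was -0.91, beside a median of -1.46 over all 390 miRNAs. Between C643 and Huh-7, 4 of the 8 were at least 4-fold lower in C643 and none higher, beside 132 lower and 81 higher of all 399 miRNAs. When ES-2 was set against C643, miR-17-5p (4.42-fold) and miR-20a-5p (4.11-fold) passed the limit toward ES-2, and none of the list toward C643. Of all 351 miRNAs compared there, 36 passed toward ES-2 and 71 toward C643. In summed reads the 4 arms exceeded this list in ES-2 and C643 and fell below it in Huh-7.

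In the list linked to thyroid carcinoma (miR-146b-5p, miR-146b-3p, miR-181b-5p, miR-21-5p and miR-31-5p), none of 3 compared between C643 and Huh-7 reached 4-fold, beside 81 higher and 132 lower of all 399, and miR-146b-5p came close at 3.93-fold lower in C643. The list held 28.6% of reads in ES-2, 28.8% in C643 and 33.6% in Huh-7, nearly all of it miR-21-5p with 28.2%, 28.6% and 33.3%. Between ES-2 and Huh-7, miR-31-5p had 4574 reads against 2, and miR-146b-5p was 4.01-fold lower in ES-2. miR-93-5p and miR-25-3p belong both to the reference list and to the list linked to cyclin-dependent kinase inhibitors.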

How the data were processed

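Small RNA libraries of parental C643, ES-2 and Huh-7 cells, 1 per line, were analysed. The authors deposited a signal per miRNA locus that the tables call CPM, in 2 tables (C643 alone, and ES-2 with Huh-7) of 2813 loci. The submitters' processing notes name cutadapt 1.14, Bowtie2 2.3.3, SAMtools 1.5, featureCounts 1.5.3, edgeR 3.18.1 and the build hg38, without their roles. The miRNA annotation version and the handling of reads matching several loci were not given in the sources used here.

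The design had assumed plain CPM, but the columns summed to 959302, 1154552 and 612015 in C643, ES-2 and Huh-7, so a further factor cannot be told apart from another library size. Every nonzero value was a whole multiple of the smallest step of its column (100% within 0.001 read), 0.117, 0.694 and 0.282 units per read, and whole reads were recovered. A miRNA without a read could hold up to 3.67e-05%, 0.00018% and 0.000138% of reads (3 reads).

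Loci were summed by mature name. Shares have Wilson 95% intervals, folds log intervals and ratios exact (Clopper-Pearson) intervals. Reads at or under 3 were set to 3 for the folds counted, and no fold was taken where both libraries were at or under 3. A 4-fold difference was counted among miRNAs at 10 or more units in either library. Arm shifts were counted at 2-fold among hairpins with 100 or more reads in each library and more than 3 on each arm. The read test was a two-sided exact binomial test at an adjusted 0.05, checked on simulated reads drawn at fixed shares. That simulation held no spread between libraries and no PCR copies, so it covers counting error only. With 1 library per line no p-value was taken across miRNAs.

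Members and lists (cyclin-dependent kinase inhibitor-linked, thyroid carcinoma-linked, reference and chromosome X) were chosen with earlier results of these data known, and 1 further list is not reported here. Named miRNAs were the members, the lists, the 3 other chromosome X miRNAs of highest mean share, miRNAs sharing a seed, the 5 nearest in pattern and the neighbours in rank. miR-122-5p was named after its values were seen. Python 3.11.15, numpy 2.4.6, pandas 2.3.3 and scipy 1.17.1 were used. Alternatives were other denominators, scalings, filters, fold limits, arms and pair distances.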

Additional observations from a re-analysis of the deposited data

How the results depend on the processing

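No paired analysis was possible because only 1 library was made per line, without shared replicate numbers. No direction of a member's fold changed under any scaling tried. Of the recomputed values for single members, the counts of nearest miRNAs kept among them, 31 did not move beyond their limits and 81 moved. Of the values for the main comparisons 26 did not move beyond their limits, 38 moved and 3 turned round. The limit was counting error for shares, folds and ratios, and a set fold change for counts. Changes of denominator, filter, fold limit and arm follow from the construction of the alternative, and for changes of scaling the cause was not tested. Given for C643, ES-2 and Huh-7 in turn, the share of the 4 arms was 6.69%, 11.4% and 0.869% without miR-21-5p in the denominator, 4.58%, 9.41% and 0.355% with 1000000 as the denominator, and 6.75%, 10.9% and 0.711% over single-locus miRNAs. The log2 fold of the 4 arms, 3.81 in ES-2 over Huh-7, was 4.73 on the deposited scale with a pseudocount of 1, 4.72 with 10, 4.88 with the median ratio at 0, 5.61 against the reference miRNAs and 3.71 without miR-21-5p. For C643 over Huh-7, 3.04 became 3.69, 3.69, 3.67, 4.69 and 2.94 in the same order. For ES-2 over C643, 0.77 became 1.04, 1.04, 1.02 and 0.92 under the first 4 of these. The ratio of miR-221 to miR-222 turned round with the 5p arms in place of the 3p arms, to 6.96, 14.8 and 34.3, and was 0.521, 0.468 and 0.404 with both arms summed. For ES-2 over Huh-7 the 65 miRNAs past 4-fold became 40 with a filter at 100 units, and the read test called 100 higher in ES-2. In C643 over Huh-7, 81 became 48 with that filter. In ES-2 over C643, 36 became 101 without a filter, 14 with the filter at 100, 72 at 2-fold and 19 at 8-fold. Hairpins with a 2-fold arm shift numbered 8 in place of 18 between ES-2 and Huh-7, and 19 in place of 31 between ES-2 and C643, with 500 or more reads. With arms at 3 or fewer reads set to 3, a setting added once the data were known, they numbered 38, 75 and 53 for ES-2 and Huh-7, C643 and Huh-7, and ES-2 and C643. Both settings also change which hairpins are compared, and that number is not given here, so these counts show no change of rate. Of the 5 miRNAs nearest in pattern to miR-221-3p and to miR-222-3p, 3 were kept with a filter at 10 units, where miR-29a-5p and miR-378a-5p entered. For miR-221-3p both came in ahead of miR-222-3p. Depth limited miR-222-5p most, with 6 reads in Huh-7, where 1 read added to each arm lowered the 3p to 5p ratio from 1496 to 1282.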
